A study of Capra hircus with 12 samples.

Results

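The genes described here are the interleukin-6 (IL-6) family cytokines, their receptors and the signaling genes next to them, as expressed by cultured goat cells of the temporomandibular joint (TMJ). They were chosen by symbol and are 10 of the 28910 genes counted: the ligands IL6, IL11, LIF and CLCF1, the receptor chains IL6R, IL6ST, LIFR and OSMR, the transcription factor STAT3, and the feedback inhibitor SOCS3. All 10 had enough reads to be tested in every comparison. RNA was sequenced from cells of the superficial layer cartilage (SLC) and of the middle layer cartilage (MLC), in 4 groups of 3 libraries. Each layer gave a group treated with IL-1β and a group treated with IL-1β + LOXL2. LOXL2 is a secreted enzyme that crosslinks collagen and elastin, and the question was how its overexpression changes the response of these cells to IL-1β, an inflammatory cytokine.

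The cells came from condyles of female goats aged 6 to 9 months, obtained from abattoirs, and were used at passages 3 to 5. All 4 groups received 10 ng IL-1β for 1 h. The groups labelled IL-1β + LOXL2 were transduced overnight beforehand with an adenovirus carrying LOXL2. An empty adenovirus is named as the control in the methods for flow cytometry of goat TMJ cells, but for the cultures sequenced here the sources used do not say whether the IL-1β groups received it, so LOXL2 and the adenovirus cannot be told apart. Cells without IL-1β were not analysed here, and nothing below measures a response to IL-1β itself. No label says that the 3 libraries of a group came from separate animals or cultures, so each p-value measures only the spread between these libraries.

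Cytokines of this family signal through IL6ST, also called gp130, together with further receptor chains, some of which serve several ligands. IL-6 and IL-11 bind their own alpha receptors, LIF binds LIFR, and oncostatin M can signal through OSMR or LIFR. The receptor complexes activate JAK kinases, which phosphorylate STAT3, and STAT3 in turn induces SOCS3, which shuts off the receptor complex. In joint cells IL6 and LIF are early genes of the response to IL-1β, and their proteins are found in arthritic joints.

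The libraries held between 14158607 and 28931652 counts. The first SLC IL-1β + LOXL2 replicate stood apart: its chi-square per degree of freedom against the other libraries of its group was 169 and 61.9, where that of any other replicate pair was 36.0 or lower. Reads of the LOXL2 gene did not mark the transduced groups. In SLC it lay between 616 and 636 CPM (counts scaled to library size) with IL-1β and between 461 and 564 CPM with LOXL2, and in MLC between 764 and 870 CPM and between 746 and 813 CPM. Whether RNA of the transgene maps to the goat gene was not tested. The cells expressed collagen I genes strongly in both layers. Of the cartilage markers, COL2A1 had a median of 0 CPM in SLC and 18.7 CPM in MLC with IL-1β, and ACAN 47.1 and 414 CPM, so that the defining cartilage collagen was near absent from SLC. The median of the leukocyte gene PTPRC was 0 CPM in every group.

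The ligand IL6, the founding cytokine of the family, differed mainly between the layers. Its normalized counts, which are read counts scaled to a common library size, were 1900.3, 2881 and 2815 in the SLC libraries with IL-1β and 552, 2779.6 and 1876 in those with IL-1β + LOXL2. In MLC they were 5013, 10189 and 5714 with IL-1β and 5071, 6136 and 5438 with LOXL2. Every MLC library was above every SLC library, whereas the treatments overlapped within each layer. The lowest value, 552, belonged to the library that stood apart.

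IL11 is a relative of IL-6 with its own alpha receptor, and it had the same order of groups. It was counted at 537, 756 and 739.7 in SLC with IL-1β, at 328, 754 and 650.0 with LOXL2, at 1068, 1734 and 1288 in MLC with IL-1β, and at 1157, 1337 and 1309 with LOXL2. Again the layers were separate and the treatments overlapped in both.

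LIF, which signals through LIFR and IL6ST, was the ligand whose treatments were separate too. In SLC its normalized counts were 1018, 1520.4 and 1359.9 with IL-1β and 536, 923 and 782 with LOXL2. In MLC they were 2078, 2867 and 2077 with IL-1β and 1607, 1831 and 1718 with LOXL2. The 4 groups did not overlap at all, and their order was SLC with LOXL2, SLC, MLC with LOXL2 and MLC. The mean was 1299 ± 257 and 747 ± 196 in SLC and 2341 ± 456 and 1719 ± 112 in MLC (SD, n = 3 each).

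CLCF1, a neurotrophic ligand of the family, ran the other way between layers. Its counts were 1428, 1586 and 1505 in SLC with IL-1β and 1348, 1888 and 1652 with LOXL2, against 1172, 1183 and 1118 in MLC with IL-1β and 1142, 1287 and 1330.0 with LOXL2. Each SLC library was above each MLC library, and the treatments overlapped.

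**Figure D1:**
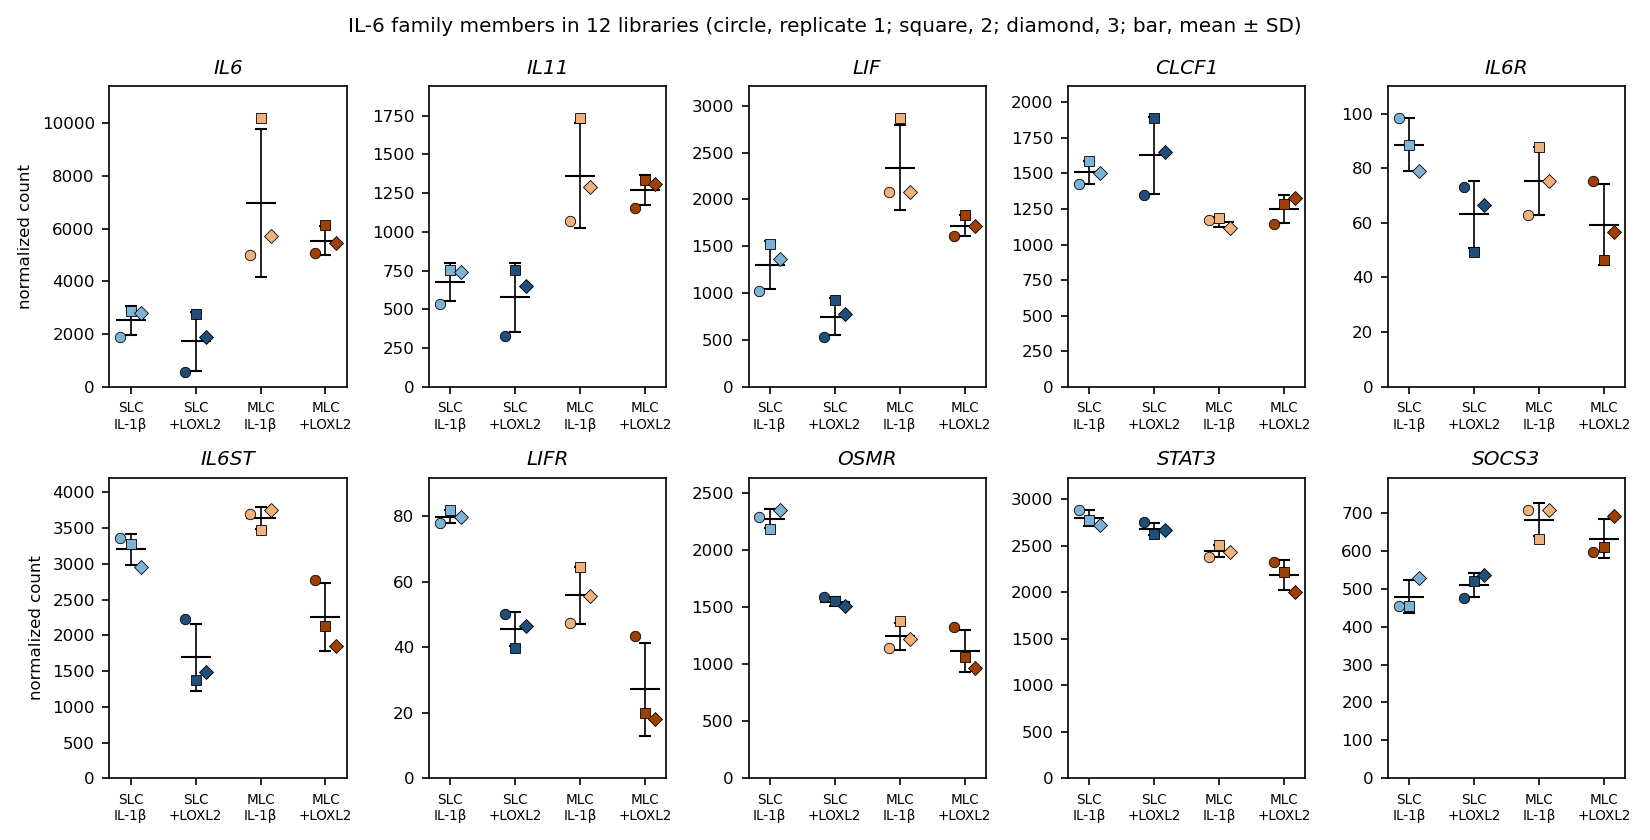
Normalized count (linear axis from 0, a scale of its own for each gene) of the 10 genes in the 12 libraries, by layer and treatment, with the mean and SD of each group of 3. IL6, IL11 and LIF are higher in every MLC library than in every SLC library, and IL6ST is lower in every library with LOXL2 (1369 to 2776) than in every library with IL-1β alone (2964 to 3759).

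The shared signal transducer IL6ST was lower with LOXL2 in both layers. It was counted at 3366, 3279.8 and 2964 in SLC with IL-1β and at 2234, 1369 and 1482 with LOXL2. The MLC libraries had 3692, 3476 and 3759 with IL-1β and 2776, 2132 and 1852 with LOXL2. The 6 libraries with LOXL2 were all below the 6 with IL-1β alone, and in each layer replicate 1 was the highest of the LOXL2 libraries.

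LIFR, the LIF receptor chain, had few reads, from 15 to 98 a library. Its normalized counts were 77.8, 81.9 and 79.7 in SLC with IL-1β and 50.2, 39.8 and 46.4 with LOXL2, and 47.2, 64.5 and 55.7 in MLC with IL-1β and 43.4, 19.9 and 18.2 with LOXL2. The treatments were separate in both layers, though replicate 1 of MLC with LOXL2 was close to the lowest library with IL-1β alone. The lowest count of 15 reads has an exact 95% Poisson interval of 8.40 to 24.7, which covers counting error only.

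OSMR, the oncostatin M receptor chain, separated the treatments in SLC alone. It was counted at 2292, 2185 and 2355 with IL-1β and at 1586, 1551 and 1507 with LOXL2 in SLC, a mean of 2277 ± 85.8 against 1548 ± 39.8 (SD, n = 3 each). In MLC the values were 1141, 1376 and 1217 with IL-1β and 1325, 1059 and 963 with LOXL2, and the groups overlapped. All 6 MLC libraries were below all 6 SLC libraries.

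IL6R, the IL-6 binding chain, was also counted low, at 35 to 106 reads a library. Its mean normalized count in SLC was 88.6 ± 9.74 with IL-1β and 63.1 ± 12.3 with LOXL2, and in MLC 75.4 ± 12.3 and 59.4 ± 14.7 (SD, n = 3 each). The treatments were separate in SLC, from 78.8 to 98.3 against 49.4 to 73.2, and overlapped in MLC.

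STAT3 and its inhibitor SOCS3 had small differences between treatments. STAT3 was counted at 2719 to 2887 in SLC with IL-1β and at 2627 to 2752 with LOXL2, and in MLC at 2380.0 to 2509 and at 2006 to 2322, where the treatments were separate. SOCS3 was counted at 454 to 529 and 475 to 537 in SLC and at 632 to 708 and 596 to 691 in MLC, so that its treatments overlapped in both layers and its layers were separate.

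The effect of LOXL2 was then tested across all genes in each layer and over both. Over both layers, with the layer as a term, 5 of the 10 genes were called at an adjusted p under 0.05 and all were lower with LOXL2, where 52.9% of the 14313 genes tested were called in either direction and 25.2% in the lower direction. LIFR fell by 0.89 on the log2 scale (95% interval -1.29 to -0.49, adjusted p = 0.00425). IL6ST fell by 0.80 (-1.06 to -0.53, adjusted p = 0.00305), which is 1.74 times lower. LIF, the only ligand called, fell by 0.61 (-0.92 to -0.30, adjusted p = 0.00545). IL6R fell by 0.41 (adjusted p = 0.0329) and OSMR by 0.35 (adjusted p = 0.00842), so that each of the 4 receptor chains was called lower. The IL6R call was lost in 8 of the 12 fits that left out 1 library (log2 fold changes between -0.50 and -0.33 in all 12, the 8 being those without SLC IL-1β replicate 1 or 2, SLC IL-1β + LOXL2 replicate 2 or 3, MLC IL-1β replicate 2 or 3, or MLC IL-1β + LOXL2 replicate 2 or 3), and the other 4 calls held in all 12. With replicate 1 of both LOXL2 groups left out, a choice made after seeing the data, these 5 were lower and CLCF1 was higher (0.22, adjusted p = 0.0046), among 66.4% of all genes. Libraries of the same replicate number in the LOXL2 groups of the 2 layers deviated together, clearly so for replicate 1 only, and edgeR took them as independent. In limma-voom with those pairs taken as correlated (estimated correlation 0.367), also a choice made after seeing the data, the same 5 genes were called lower (IL6R at -0.43, adjusted p = 0.0332), among 48.5% of all genes in either direction and 23.8% in the lower. The median log2 fold change of the 10 genes was -0.38, and that of all tested genes was 0.01.

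The genes not called over both layers were IL6, IL11, CLCF1, STAT3 and SOCS3. The log2 fold change of IL6 was -0.43, and its interval of -1.06 to 0.21 leaves room for a fall by more than the 1.74 times of IL6ST and for a small rise. IL11 was at -0.16 (-0.54 to 0.23) and CLCF1 at 0.12 (-0.05 to 0.29). The intervals of STAT3 (-0.22 to 0.02) and SOCS3 (-0.15 to 0.15) were narrower. In a two-sided exact permutation test of log2 normalized counts within layers, LIF, IL6ST and LIFR reached p = 0.005, the smallest that test can give, STAT3 had p = 0.01, and IL6R and OSMR had p = 0.02. That test too takes the LOXL2 libraries of the layers as independent, so its p-values are too small where the pairs deviate together.

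Within SLC alone none of the 10 genes was called, and 0.00% of the 14103 genes tested were (0 genes by edgeR, although 6108 had an unadjusted p under 0.05). DESeq2's Wald test called 29.4% of the same genes (13.9% lower) and 4 of the 10, all lower: LIF, IL6ST, LIFR and OSMR. A fit on all 12 libraries called the same 4 among 41.1% of genes (18.5% lower). By edgeR these 4 each had an adjusted p of 0.0706, with log2 fold changes of -0.79, -0.91, -0.81 and -0.55. IL6 was at -0.54 with an interval of -1.71 to 0.62. Without the replicate that stood apart, 61.7% of genes and 6 of the 10 were called: the same 4, IL6R at -0.62 and CLCF1, higher at 0.23 (adjusted p = 0.0492). The normalized counts of 5 of the 10 (LIF and the 4 receptor chains) were lower with LOXL2 without overlap, and so were those of 25.2% of tested genes. The exact permutation test of 3 against 3 libraries cannot go below 0.1.

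Within MLC alone 3 of the 10 genes were called, all lower, where 21.6% of the 13664 genes tested were called in either direction and 11.8% in the lower. LIF fell by 0.45 (95% interval -0.72 to -0.17, adjusted p = 0.0306), IL6ST by 0.70 (-0.97 to -0.42, adjusted p = 0.0190) and LIFR by 1.02 (-1.72 to -0.31, adjusted p = 0.0433). These calls were not stable. None was made without replicate 1 or 3 of the IL-1β group or replicate 2 of the LOXL2 group, where 0.00% of all genes were called, nor in a fit on all 12 libraries, where 0.00% were called too. Only that of IL6ST was made without replicate 2 of the IL-1β group (-0.73, with 5.95% of all genes called) or replicate 3 of the LOXL2 group (-0.57, with 3.43%). Without replicate 1 of the LOXL2 group 5 of the 10 genes were called, all lower, where 48.1% of all genes were called and 24.4% in the lower direction. The log2 fold changes stayed below 0 throughout, between -0.53 and -0.28 for LIF, -0.87 and -0.57 for IL6ST, and -1.55 and -0.77 for LIFR. LIF, IL6ST, LIFR and STAT3 did not overlap between treatments, as did 19.9% of tested genes in that direction. IL6 was at -0.33 (-0.77 to 0.11), and without replicate 2 of the IL-1β group, its highest library, at 0.05.

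The summed level of the 8 chondrocyte markers found had a lower median with LOXL2 in both layers, though the ranges overlapped. It lay between 1310 and 1425 CPM in SLC with IL-1β and between 751 and 1312 CPM with LOXL2, and in MLC between 1755 and 1908 CPM and between 1491 and 1868 CPM. Most of the sum was COL11A1, with a median of 1245 CPM with IL-1β and 818 CPM with LOXL2 in SLC, and of 1200.4 and 984 CPM in MLC. In SLC its ranges narrowly did not overlap, at 1173 to 1287 CPM with IL-1β and 606 to 1167 CPM with LOXL2. The normalized counts of 25.2% of tested genes were lower there without overlap. In MLC the COL11A1 ranges overlapped. The medians of ACAN, SOX9 and HAPLN1 were also lower with LOXL2 in both layers, with overlapping ranges. In SLC they were 47.1 and 35.4 CPM for ACAN, 22.0 and 18.4 CPM for SOX9, and 6.10 and 5.36 CPM for HAPLN1. In MLC they were 414 and 324 CPM, 89.7 and 76.8 CPM, and 21.1 and 19.9 CPM. Single markers did not all follow the sum. COMP, a cartilage matrix protein, was higher with LOXL2 in MLC, at 122 to 130 CPM against 141 to 176 CPM, and had a median of 63.2 and 87.2 CPM in SLC. COL2A1 in MLC had a median of 18.7 CPM with IL-1β and 18.0 CPM with LOXL2, and COL9A1 of 15.2 and 16.7 CPM. In these bulk libraries fewer cells of a type and less RNA per cell cannot be told apart. The part of the markers in the lower receptor levels was not tested.

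**Figure D2:**
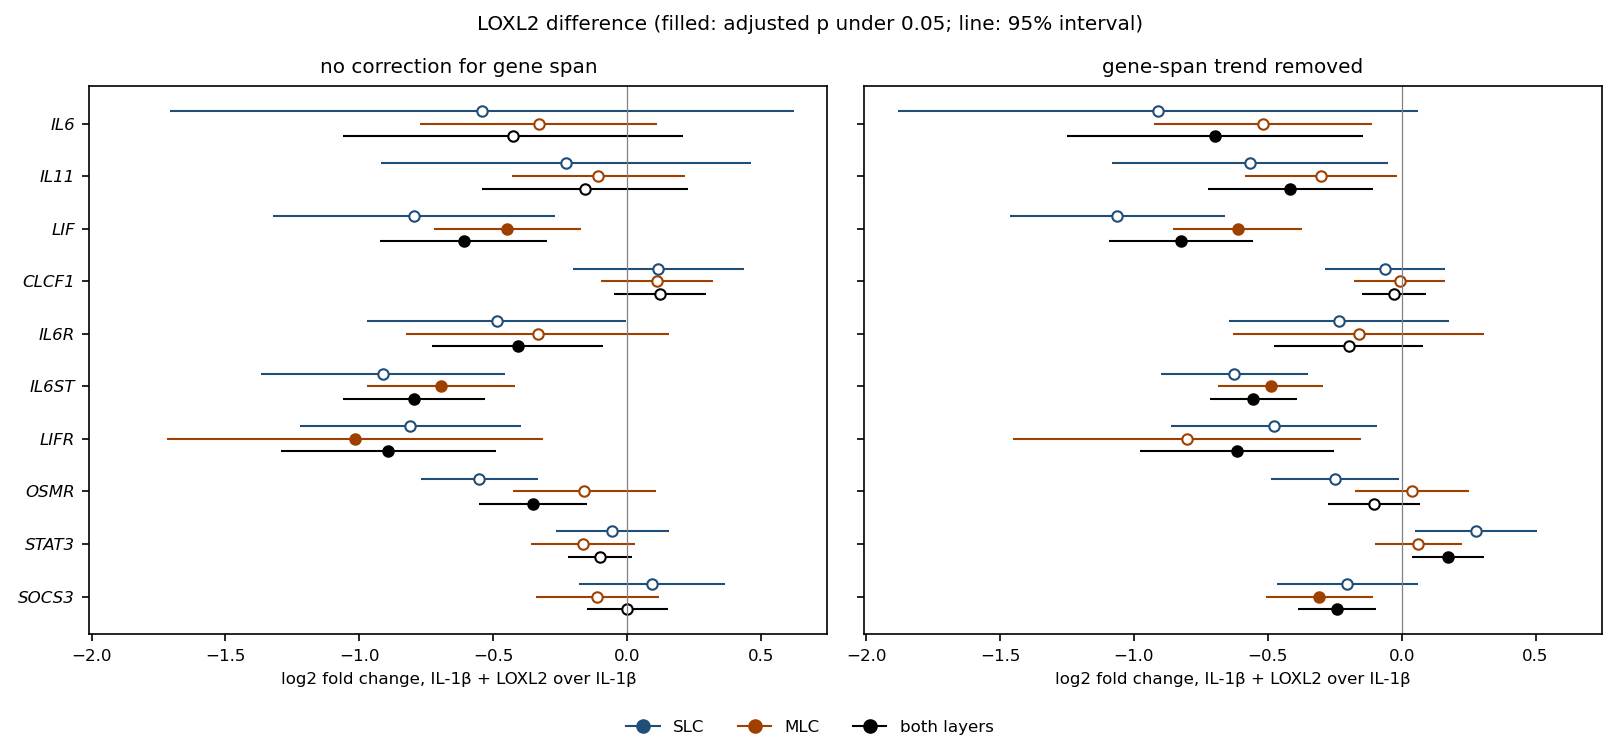
Log2 fold change of IL-1β + LOXL2 over IL-1β with its 95% interval for each gene in SLC, in MLC and over both layers, from edgeR, before (left) and after (right) the trend with gene span was removed. Filled points have an adjusted p under 0.05. Over both layers IL6ST (-0.80 and -0.55), LIFR (-0.89 and -0.62) and LIF (-0.61 and -0.83) are filled on both sides.

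The treatment effect depended on gene span across the whole table, and the 10 genes fall into short and long ones. Span is the distance from a gene's start to its end, introns included. In both layers the rank correlation of log2 fold change with span was -0.49 over all genes with a span (14073 in SLC and 13637 in MLC, genes that share libraries and are not independent replicates). In SLC the median log2 fold change was 0.49 in the shortest of 10 equal bins of genes and -0.44 in the longest. The ligands and SOCS3 span 3376 to 9830 bases and the receptor chains and STAT3 span 55026 to 78650 bases, so that the receptors stand where most genes were lower with LOXL2 and the ligands where most were higher.

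Set against genes of like span, the order of the 10 genes changed. The lower receptors IL6ST and LIFR were still below the median of their decile of span, at -0.91 against -0.23 and -0.81 against -0.35 in SLC, and at -0.70 against -0.17 and -1.02 against -0.26 in MLC. OSMR at -0.55 was below its decile's median of -0.23 in SLC, and at -0.16 it was at the median of -0.17 in MLC. Among the short genes, LIF was at -0.79 where its decile had a median of 0.31 in SLC, and at -0.45 against 0.18 in MLC. IL6 was at -0.54 against 0.39 in SLC and at -0.33 against 0.25 in MLC.

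With the span trend removed from each library, 7 of the 10 genes were called over both layers, where 45.7% of genes were. LIF (-0.83, adjusted p = 0.00278), IL6ST (-0.55, adjusted p = 0.00222) and LIFR (-0.62, adjusted p = 0.0111) were again lower. IL6 (-0.70, adjusted p = 0.0406), IL11 (-0.42, adjusted p = 0.0312) and SOCS3 (-0.24, adjusted p = 0.0122) were now called lower, and STAT3 was called higher (0.17, adjusted p = 0.0369). OSMR at -0.11 and IL6R at -0.20 were no longer called. The treatment calls that held on both scales were therefore those of LIF, IL6ST and LIFR. Why the effect follows span was not tested.

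**Figure D3:**
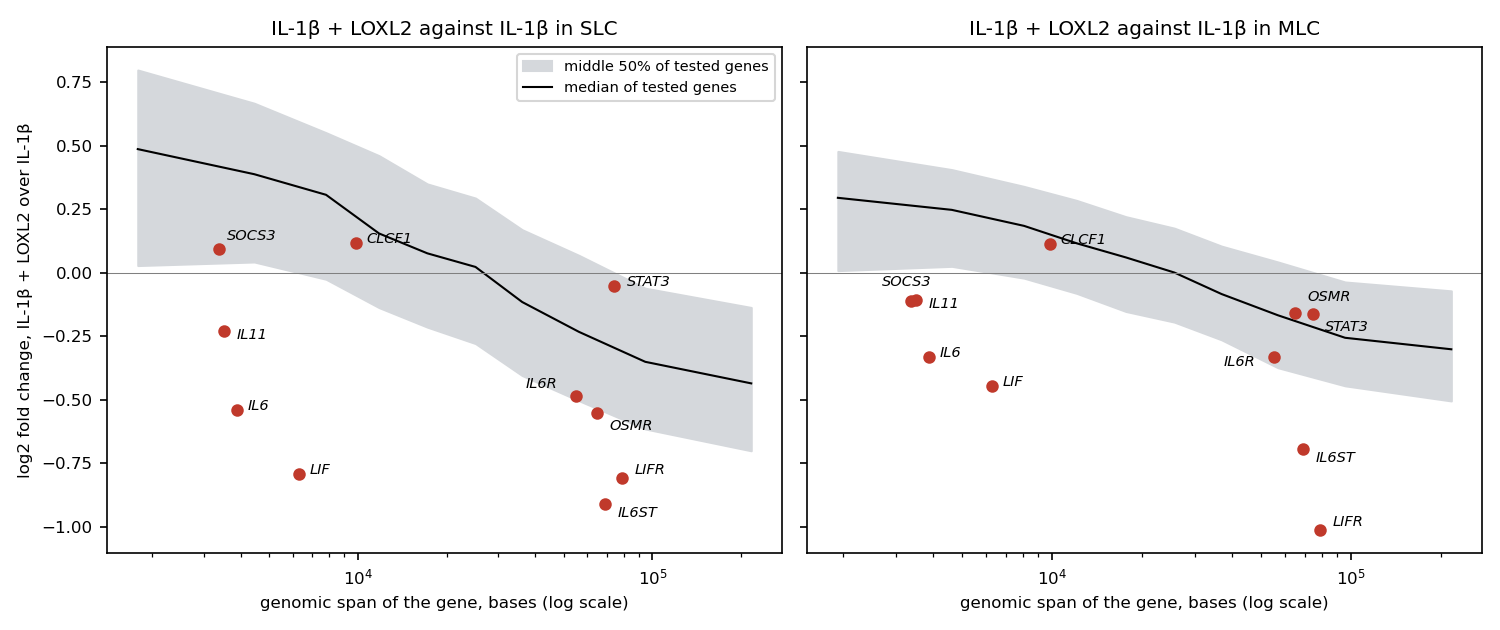
Log2 fold change of IL-1β + LOXL2 over IL-1β against genomic span in bases (log axis), in SLC (left) and MLC (right). The line joins the medians of 10 equal bins of tested genes, the grey band holds the middle 50% of each bin, and red points are the 10 genes. IL6, IL11, LIF, IL6ST and LIFR lie below the band in both layers.

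The levels of IL6, IL11 and LIF were higher in MLC than in SLC at either treatment. Under IL-1β, 9 of the 10 genes were called between MLC and SLC, where 46.9% of the 13953 genes tested were. IL6 was 2.79 times higher in MLC (log2 fold change 1.48, 95% interval 1.03 to 1.93, adjusted p = 4.79e-05), IL11 2.04 times (1.03, 0.70 to 1.35, adjusted p = 6.44e-05) and LIF 1.82 times (0.87, 0.58 to 1.16, adjusted p = 0.000111). SOCS3 was 1.44 times higher in MLC (adjusted p = 0.00014), and IL6ST 1.15 times (adjusted p = 0.0167).

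The genes lower in MLC were OSMR, CLCF1, LIFR and STAT3. OSMR had the largest difference of them, with a log2 fold change of -0.85 (-1.01 to -0.69, adjusted p = 3.21e-07), which is 1.80 times lower. LIFR was at -0.49 (adjusted p = 0.0357), CLCF1 at -0.36 (adjusted p = 0.000322) and STAT3 at -0.18 (adjusted p = 0.0219). Without the span trend the calls of LIFR (-0.44, adjusted p = 0.0599) and STAT3 (-0.13, adjusted p = 0.0768) were lost. Calls were also lost in some of the 6 fits without 1 library: LIFR in 5 (all but that without MLC replicate 2), STAT3 in 3 (without SLC replicate 1 or MLC replicate 1 or 3) and IL6ST in 3 (without SLC replicate 3 or MLC replicate 1 or 3, with log2 fold changes down to 0.16). IL6R was at -0.21 (-0.58 to 0.17) and was not called. These same 9 genes did not overlap between layers, as 56.1% of tested genes did not.

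With IL-1β + LOXL2 the log2 fold change between layers had the same sign as with IL-1β alone for each of the 10 genes (that of IL6R, at -0.07, turned to 0.07 without SLC replicate 1 or MLC replicate 2), and 2 were called, both higher in MLC, where 16.1% of the 14074 genes tested were called and 9.29% in that direction. They were LIF (2.32 times higher in MLC, log2 fold change 1.22, 0.76 to 1.67, adjusted p = 0.00532) and IL11 (2.22 times, 1.15, 0.50 to 1.79, adjusted p = 0.0288). IL6 was 3.24 times higher in MLC but varied more (1.70, 0.56 to 2.83, adjusted p = 0.0539). Same-numbered libraries of these 2 groups deviated together, clearly so for replicate 1 only, and a pairing was read from the data, not the labels. With the number as a replicate block 6 of the 10 genes were called (27.6% of all genes): IL6 (1.94, adjusted p = 0.00266), IL11, LIF and IL6ST higher in MLC, and OSMR and CLCF1 lower. DESeq2's Wald test called 4 (20.5% of all genes), the fit without the span trend 5 (21.4%) and a fit on all 12 libraries 7 (28.9%). Without the replicate that stood apart 6 were called as well (32.9% of all genes), and IL6 was at 1.27. The IL11 call was lost without SLC replicate 3 or without any 1 of the MLC replicates, at log2 fold changes of 1.10 or more, whereas that of LIF held. The groups did not overlap for 7 of the 10 genes and for 35.1% of tested genes.

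Some markers of cell types differed between the layers beside these genes. The leukocyte list summed to between 78.3 and 96.1 CPM in SLC and between 96.8 and 141 CPM in MLC with IL-1β, and CD14, with a median of 74.8 and 99.5 CPM, made up most of it, while PTPRC had a median of 0 CPM in both. The chondrocyte list summed to between 1310 and 1425 CPM in SLC and between 1755 and 1908 CPM in MLC. COL11A1, most of that sum, overlapped between the layers, with medians of 1245 and 1200.4 CPM. The superficial fibrous list overlapped too, at 68732 to 70740 CPM in SLC and 67077 to 69050 CPM in MLC. Its genes went both ways without overlap. PRG4 (3.83 to 4.86 CPM in SLC, 5.13 to 7.22 CPM in MLC) and COL3A1 were higher in MLC, and COL1A1, COL1A2 and TNXB were lower. Endothelial and osteoblast lists summed to 5.20 CPM or less in all 4 groups. The part of these cell types in the layer difference was not tested.

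**Figure D4:**
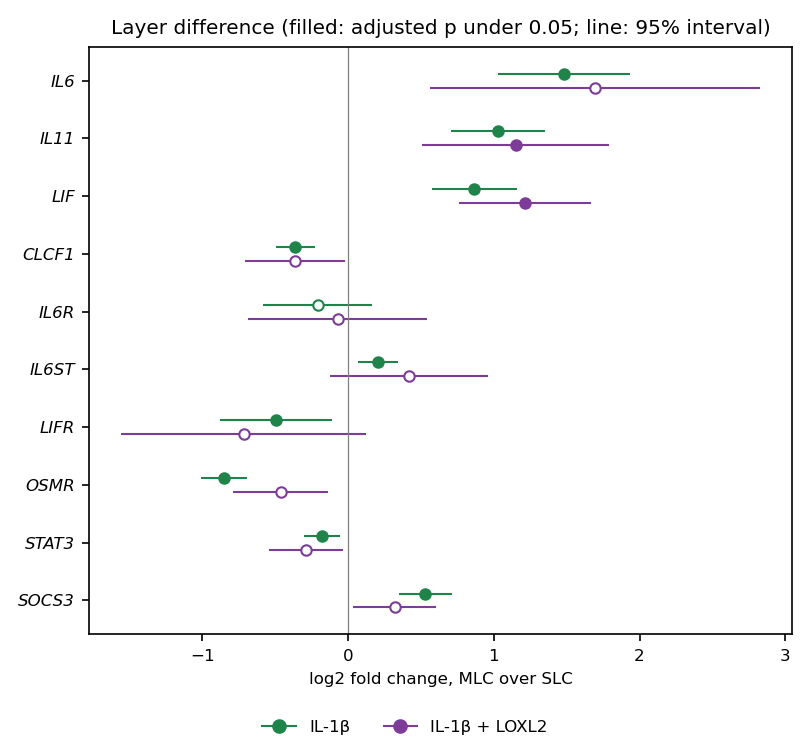
Log2 fold change of MLC over SLC with its 95% interval for each gene, with IL-1β and with IL-1β + LOXL2, from edgeR without a replicate block. Filled points have an adjusted p under 0.05. IL6, IL11 and LIF lie between 0.87 and 1.70 at either treatment, and OSMR lies at -0.85 and -0.46.

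Whether LOXL2 acted differently in the layers was asked with an interaction term fitted to the 12 libraries. None of the 10 genes was called, and 0.00% of the 14519 genes tested were (0 genes by edgeR, 327 with an unadjusted p under 0.05, and 0 by DESeq2). OSMR came nearest, with a log2 fold change 0.38 higher in MLC (95% interval 0.03 to 0.73, unadjusted p = 0.0356, adjusted p = 0.958). For IL6 the interval of the difference ran from -1.13 to 1.51, so the fold change in MLC could be from 0.46 to 2.86 times that in SLC. Calls made in one layer and not in the other are thus not shown to differ between them.

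The ligands varied together from library to library. Within groups, as deviations of log2 CPM from the group mean over the 12 libraries, Pearson's r was 0.98 between IL6 and IL11, 0.94 between IL6 and LIF, and 0.95 between IL11 and LIF. The replicate that stood apart lay at -1.37 for IL6. CLCF1 followed IL6 less closely (r = 0.86). IL6ST went against the ligands, with r = -0.79 to IL6 and -0.93 to CLCF1, while LIFR and OSMR went together (r = 0.90). The r of -0.79 leans on SLC with LOXL2, where IL6 deviated by -1.37, 0.97 and 0.40 and IL6ST by 0.43, -0.27 and -0.16. Outside that group IL6 deviated by -0.40 to 0.62. These correlations are descriptions of libraries that share depth and composition. The ligands are short genes and IL6ST, LIFR and OSMR long ones, and the span trend was not removed here. The part of gene span in these correlations was not tested.

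**Figure D5:**
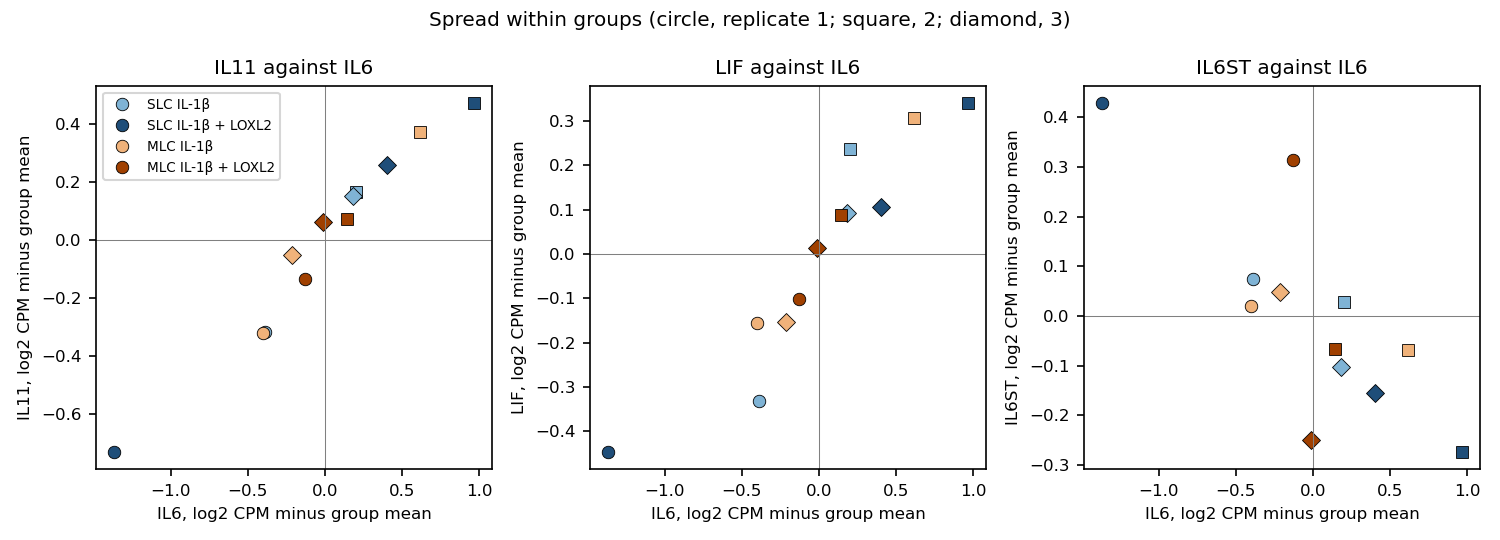
Deviation of log2 CPM from the mean of its group for IL11, LIF and IL6ST (vertical axes) against that for IL6 (horizontal axis) in the 12 libraries. IL11 and LIF rise with IL6 (r = 0.98 and 0.94) and IL6ST falls (r = -0.79), and replicate 1 of SLC with LOXL2 is the lowest point for IL6, at -1.37. The r of IL6ST leans on SLC with LOXL2, whose points spread from -1.37 to 0.97 for IL6.

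Over the 12 libraries, groups included, the genes most like each ligand among 14518 others were found by Pearson's r of log2 CPM. IL6 was most like IL11 (0.986), the uncharacterized LOC102181582 (0.982) and NCALD, a calcium sensor (0.974). IL11 was most like IL6, LOC102181582 (0.984) and PTX3, a secreted pentraxin of inflammation (0.974). LIF was most like SOCS2, a cytokine signaling inhibitor (0.978), SLC2A1, a glucose transporter (0.968), and PTGS2, which encodes the prostaglandin synthase COX2 (0.966). CLCF1 was most like ID3 (0.979), ZNF576 (0.975) and NDUFA4L2 (0.972). IL6 and IL11 are thus each other's nearest gene in this table.

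Further members of the family were few. Of 12 other ligands and receptors written down, 11 were in the tables and 5 or 6 were tested, depending on the comparison. None was called for LOXL2 in MLC (1 higher with the span trend removed, where 7.79% of genes were), and over both layers 2 were called higher, where 27.7% of genes were. The genes of this list named here were chosen after their values were seen. IL11RA, the alpha receptor of IL-11, was 1.40 times higher with LOXL2 (log2 fold change 0.49, adjusted p = 0.00384), unlike the 4 receptor chains above, and IL27RA 1.16 times (0.21, adjusted p = 0.00904). Those 4 chains are long genes, whereas this list has a median span of 9503 bases. With the span trend removed its median log2 fold change over both layers went from 0.25 to 0.14. Again 2 of the list were called higher, where 26.9% of genes were. CTF1, the ligand cardiotrophin 1, was 2.71 times lower in MLC than in SLC with IL-1β (log2 fold change -1.44, adjusted p = 0.000352). OSM, the ligand of OSMR, was counted at 0 to 3 reads and IL31RA at 0 in every library. A count of 0 allows up to 3 reads, an upper 95% Poisson limit taken on 1 side only, unlike the interval given for LIFR.

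Calls for LOXL2 among genes of JAK-STAT signaling were all in the lower direction before gene span was taken into account, and went both ways after. Of 18 genes of JAK-STAT signaling and its inhibitors 17 were tested, and 5 were called lower and 0 higher with LOXL2 in MLC (background 11.8% lower), with a list median of -0.21 against 0.01 for all genes. ADAM10, a protease that sheds surface receptors, fell by 0.50 (adjusted p = 0.0251), the kinase JAK2 by 0.49 (adjusted p = 0.0241) and the phosphatase PTPN11 by 0.46 (adjusted p = 0.0286). Over both layers 10 of the 17 were called lower and 0 higher, where 25.2% and 27.7% of all genes were. The list holds long genes, with a median span of 64599 bases where tested genes in MLC had 21271. With the span trend removed, 1 was called lower and 1 higher in MLC (6.87% and 7.79% of all genes), and 7 lower and 2 higher over both layers (18.8% and 26.9%), with list medians of -0.11 and -0.12. In the fit on all 12 libraries none of this list or of the lists below was called for LOXL2 in MLC, where 0.00% of all genes were. Between layers under IL-1β 16 genes of the list were tested. Of these, 4 were called higher in MLC and 6 lower, where 24.2% and 22.7% of all genes were.

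Calls among targets of STAT3 went both ways. Of 17 tested, 1 was called higher and 2 lower with LOXL2 in MLC (9.81% and 11.8% of all genes), and 2 higher and 6 lower over both layers (27.7% and 25.2%). The list holds short genes, with a median span of 5481 bases, and its balance depended on the scale. Its median log2 fold change in MLC was 0.05, with 8 of the 17 below 0. With the span trend removed it was -0.16, with 14 of the 17 below 0 and again 1 called higher and 2 lower (7.79% and 6.87% of all genes). Over both layers the median went from -0.06 to -0.25, and with the trend removed 1 was called higher and 8 lower (26.9% and 18.8% of all genes). Within MLC, TIMP1, an inhibitor of matrix metalloproteinases, was 1.52 times higher with LOXL2 than with IL-1β alone (log2 fold change 0.61, adjusted p = 0.0199). The AP-1 gene FOSL2 fell there with LOXL2 by 0.45 (adjusted p = 0.0322) and the hypoxia factor HIF1A by 0.35 (adjusted p = 0.0402). Between layers under IL-1β, 8 of the 17 were called higher in MLC and 2 lower, where 24.2% and 22.7% of genes were. The list median there was 0.17 against -0.01 for all genes.

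Regulators of IL6 mRNA were the last list. These are proteins that bind the message, mostly to destroy it, or that control its transcription. All 10 were tested, and 4 were called lower and 0 higher with LOXL2 in MLC, where 11.8% and 9.81% of all genes were. RC3H1 fell by 0.56 (adjusted p = 0.0190), ZC3H12C by 0.47 (adjusted p = 0.0463) and RC3H2 by 0.46 (adjusted p = 0.0313), all of which encode proteins that promote decay of cytokine messages. The remaining gene called, NFKBIZ (-0.44, adjusted p = 0.0241), is not one of these decay factors, and is named after its value was seen. ZC3H12A, the best known of these nucleases, was at 0.10 (adjusted p = 0.573), and it is named after its value was seen. Over both layers 5 of the 10 were called lower and 0 higher (25.2% and 27.7% of all genes). With the span trend removed 3 were called lower and 0 higher in MLC (6.87% and 7.79% of all genes), and 4 lower and 2 higher over both layers (18.8% and 26.9%).

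The 10 genes lie on 7 chromosomes of the goat genome (build ARS1.2, RefSeq annotation), all as protein-coding genes. The ligands are IL6 (chromosome 4, 89125124 to 89129007), IL11 (chromosome 18, 63877130 to 63880642), LIF (chromosome 17, 1999635 to 2005933) and CLCF1 (chromosome 29, 45648227 to 45658056). On chromosome 20 lie OSMR (35473504 to 35538457), LIFR (35849694 to 35928343) and IL6ST (23233087 to 23301937). IL6R is on chromosome 3 (103968958 to 104023983), and STAT3 (42057315 to 42131657) and SOCS3 (53046049 to 53049424) are on chromosome 19. IL6ST, LIFR and STAT3 each overlap 1 other annotated gene, and reads of the overlapping genes may not be told apart.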

How the data were processed

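The 10 genes, the gene lists and the tests were chosen with earlier results of these data known. The authors mapped trimmed read pairs of poly-T selected RNA to ARS1.2 (the labels name HISAT2) and deposited the raw featureCounts counts of each layer as a table. The settings for strand and multiply mapped reads are not given in the sources used here. The labels name an RNeasy kit for RNA and the paper TRIzol. Of 28910 rows, 27127 had a name found once in both tables, and the 1783 rows sharing a name were left out of fits joining the layers.

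Tests used the quasi-likelihood method of edgeR 4.0.16 under R 4.3.3 (TMM scaling, filterByExpr at 10 counts and 15 in total, Benjamini-Hochberg adjustment over all genes tested, threshold 0.05) without a replicate block. The study used DESeq2's Wald test, run here as an alternative (DESeq2 1.42.0). Normalized counts use DESeq2 size factors over 12 libraries, and log2 CPM a prior count of 2. For removal of the span trend, a lowess curve (smoother span 0.3) of log2 CPM on log span in each library served as edgeR's offset. For the effect over both layers with LOXL2 libraries correlated by number, limma 3.58.1 estimated the correlation. The edgeR, DESeq2 and limma fits were tested on simulated data. Same-numbered deviations all correlated above 0 between layers with IL-1β + LOXL2 only (0.606, 0.206 and 0.168 for replicates 1, 2 and 3). There replicate 1 was the best match both ways, whereas SLC replicate 2 and MLC replicate 3 each matched another number better. Elsewhere only replicate 2 across treatments in MLC was the best match both ways (0.111). Named genes are the 10, the 3 genes most like each ligand, and up to 3 called genes of each list in each direction with the largest change in MLC. Exon lengths and sequences were not used here, so levels were not compared between genes and no motif was sought, although both had been planned. A gene of the list of other ligands and receptors is not reported here.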

Additional observations from a re-analysis of the deposited data

How the results depend on the processing

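The percentages in this paragraph are shares of all genes tested. Of the 10 genes, 4 were called for LOXL2 in SLC by DESeq2's Wald test (29.4%) and 4 in a fit on all 12 libraries (41.1%). By edgeR in SLC alone 0 were called (0.00%), and from 0 to 6 with 1 library left out (0.00% to 61.7%). In MLC, 0 were called in the fit on all 12 libraries (0.00%) and from 0 to 5 with 1 library left out (0.00% to 48.1%), against 3 (21.6%). Between layers with LOXL2, 2 (16.1%) became 4 by the Wald test (20.5%), 5 without the span trend (21.4%) and 6 with the replicate block (27.6%). They became 7 in the fit on all 12 libraries (28.9%) and from 1 to 6 with 1 library left out (8.07% to 32.9%). The fits on all 12 libraries share 1 estimate of the spread, and otherwise the cause was not tested. The count over both layers (from 4 to 7), that between layers under IL-1β (from 6 to 9) and the interaction (0) moved by at most 1.5 times or stayed at their value. In the first fits of these, 52.9%, 46.9% and 0.00% of all genes were called. The replicate block changed the IL6R call over both layers (-0.42, lost) and, between layers under IL-1β, the calls of LIFR (-0.50) and STAT3 (-0.18), both lost. In those comparisons the block joins treatments within a layer, or layers under IL-1β. There same-numbered deviations correlated at -0.228 to 0.125, and only replicate 2 across treatments in MLC was the best match both ways. Deviations from means of 3 libraries cannot settle whether the numbers pair these libraries. For LOXL2 in MLC the block raised the share of all genes called from 21.6% to 29.7%. Same-numbered LOXL2 libraries of the layers deviated together, clearly so for replicate 1 only. With those pairs as correlated in limma-voom, chosen after seeing the data, 5 genes were called over both layers (48.5% of all genes).

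Signs turned for genes not called in the uncorrected fits. Without the span trend, CLCF1 was at -0.062 in SLC, -0.0079 in MLC and -0.029 over both layers, STAT3 at 0.28, 0.062 and 0.17, SOCS3 at -0.20 in SLC and -0.24 over both, and OSMR at 0.039 in MLC. SOCS3 over both layers was at -0.010 with DESeq2's size factors, -0.0063 with at least 10 counts in every library, -0.0097 by the Wald test and from -0.030 to 0.033 with 1 library left out. With 1 library left out, IL11 ranged from -0.47 to 0.049 in SLC and from -0.25 to 0.10 in MLC, IL6 from -0.52 to 0.045 in MLC, and IL6R between layers with LOXL2 from -0.27 to 0.073. Both first LOXL2 replicates were also left out together, a choice made after seeing the data: IL11 over both layers was then at 0.015. LIFR and IL6R, at 15 to 106 reads a library, are limited by depth.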
